A study of Rattus norvegicus with 12 samples.

Results

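The lungs of rats given bleomycin and then oral vehicle (the BLM group) were compared with those of rats given saline and then the same vehicle (the SAL group). These are 8 of the 12 libraries of the series, 4 animals in each group, chosen by the treatment in the labels. All were male Sprague-Dawley rats. A library was made from the homogenate of the right lung of each rat. In BLM, bleomycin at 1 U/kg was put into the trachea on day 0 and again on day 4. In SAL, saline was given in the same way on those days. Both groups received methylcellulose, the vehicle, by mouth each day from day 7 for 3 weeks, and the tissue was taken on day 28. No animal of either group received nintedanib, the drug tested in the remaining 4 libraries. The comparison therefore asks what bleomycin had left in the lung by the end of the vehicle period.

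Bleomycin is a glycopeptide that breaks DNA. In the rodent airway it injures the epithelium of the air sacs, and the injury is followed by inflammation and then by scar formed by fibroblasts that deposit collagen. The response differs between animals and often resolves in part with time. Because whole lung was homogenised, fewer cells of a type and less RNA per cell cannot be told apart in any result here. The deposited table gives Ensembl identifiers without gene names, and 0 of its 32623 identifiers matched the table of gene names used here. Genes are therefore described as sets, by how far, at what abundance and in how many animals they changed, and 4 are given by identifier. For the same reason, the lung label was not checked against marker genes, and the 36 lists of pathway and cell type genes drawn up for this comparison were not analysed here.

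Sequencing read 1 stretch near the 3′ end of each transcript. Totals were 16572004 to 18586133 counts per library in SAL and 18926664 to 21719946 in BLM. BLM replicate 3 (BLM3 below, with the other animals named likewise) stood apart from the other BLM animals, so results are given with and without it. At 5 CPM (counts scaled to a fixed normalised library total) or more, 124 genes in BLM3 were at least 2 times the highest of the other BLM animals. A further 198 were at most 1/2 of the lowest, which had to be at 5 CPM or more. In the other BLM animals these numbers were 5 to 15 and 2 to 10. SAL3 stood apart to a smaller degree, with 58 genes above and 9 below by the same measure, against 4 to 10 and 5 to 7 in the other SAL animals. For 19 genes both SAL3 and BLM3 were at least 2 times above every other animal of their group.

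Bleomycin lungs differed from saline lungs in a large part of the measured genes. Of 14956 genes tested, 6098 (40.8%) were called, that is, passed edgeR's quasi-likelihood test at an adjusted p-value below 0.05. In BLM, 2743 (18.3%) were higher and 3355 (22.4%) were lower. This fit took its estimate of spread from all 12 libraries, those with nintedanib included. With the 8 BLM and SAL libraries alone, 4747 genes were called, 2188 higher and 2559 lower. That fit kept 76.8% of the 6098 calls. Without BLM3, 5431 of the same 14956 genes (36.3%) were called, 2716 higher (18.2%) and 2715 lower (18.2%) in the fit that keeps the nintedanib libraries. When only the BLM and SAL libraries were fitted without BLM3, the excess of lower calls was present, with 1969 higher and 2508 lower. The excess depended on the setting, and higher calls were the majority in 6 of 20 alternatives. Counts thinned to the smallest library, for example, gave 3130 higher and 3079 lower calls. Between the fits with and without BLM3 that keep the nintedanib libraries, 5089 genes were called in both, all with the same direction. They made up 83.5% of the calls with 4 BLM animals and 93.7% of the calls with 3. Leaving out BLM3 removed 1009 calls, of which 286 were higher and 723 lower. It added 342 calls, of which 258 were higher and 84 lower by their log2 fold change with all animals. A loss of this size was not particular to BLM3. Leaving out 1 other animal kept from 4672 (BLM4) to 5821 (BLM2) of the 6098 calls, against 5089 without BLM3. Among the 342 added calls, 4 were falls of 2 or more on the log2 scale, down to -4.90 (-2.13 with all animals). In all 4 genes SAL3 stood at 4 or more times the level of every other SAL animal, and without both BLM3 and SAL3 none of the 4 was called (edgeR adjusted p from 0.124 to 0.485).

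Rises were mostly small and falls were larger. The median log2 fold change was 0.48 among genes called higher and -0.89 among genes called lower, beside 0.00188 over all genes tested. Of the genes called higher, 1458 changed by under 0.5 on the log2 scale and 848 by 0.5 to 1. Of those called lower, 678 and 1216 lay in these classes. Calls with a change of at least 1, that is at least a doubling or a halving, numbered 1898 (12.7% of genes tested). Among them 437 (2.92%) rose and 1461 (9.77%) fell, and falls were the majority under all 20 alternative settings. In the class from 2 to 3 there were 56 rises and 196 falls. At 3 or more the order was the other way, with 31 rises and 16 falls. Without BLM3 there were 38 rises and 75 falls from 2 to 3, and 18 rises and 11 falls at 3 or more. Of the 47 calls of 3 or more with all animals, 24 were called at this size in both fits.

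Part of the size of the falls came with BLM3. Without it, 1265 genes (8.46%) were called with a change of at least 1, 333 higher (2.23%) and 932 lower (6.23%). Of the 1461 falls of at least 1 with all animals, 908 (62.1%) were still called at this size, 375 were called with a smaller change and 178 were not called. Of the 437 rises, 311 (71.2%) were still called at this size, 74 were smaller and 52 were not called. Over the genes called lower with all animals, the median log2 fold change went from -0.89 to -0.70 without BLM3. Over those called higher it went from 0.48 to 0.46. The log2 fold change with all animals was over 1.5 times that without BLM3 for 88 genes called higher and 389 called lower. No called gene changed sign, and none had a log2 fold change over 1.5 times as large without BLM3. These genes were chosen by the fit that includes BLM3. A gene of either kind would need BLM3 towards or beyond saline, and would seldom be called in that fit. The absence of such genes therefore says little about BLM3, and cannot be weighed against the 88 and 389 genes.

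**Figure D1:**
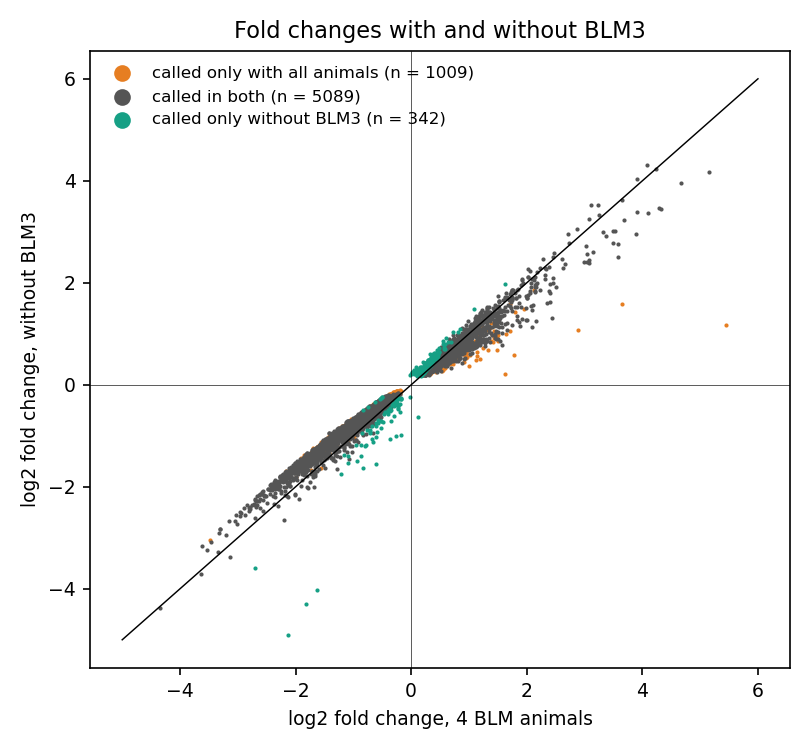
Log2 fold change (BLM minus SAL) with 4 BLM animals on the x axis and without BLM3 on the y axis, 1 point per gene called in either fit, with the line of equal values. Most grey points on the left, falls called in both fits, lie above the line; over all genes called lower the median was -0.89 with BLM3 and -0.70 without it.

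Direction followed abundance. Genes were divided by mean CPM over the 8 libraries. Under 1 CPM, 62 of 1395 genes were called as higher and 305 as lower. From 1 to 10 CPM there were 526 higher and 1248 lower among 5008. From 10 to 100 CPM the numbers were near each other, with 1579 higher and 1419 lower among 6891. From 100 to 1000 CPM, 518 were higher and 369 lower among 1565. At 1000 CPM or more, 58 of 97 genes were called higher and 14 lower. The share of calls that were higher thus went from 16.9% in the lowest class to 80.6% in the highest.

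The same order of classes was present without BLM3, with 26.4% of calls higher under 1 CPM and 83.1% at 1000 CPM or more. Without both BLM3 and SAL3 these shares were 21.2% and 82.5%. Below 10 CPM lower calls were the majority in all 20 alternatives. However, the filter on low counts can keep a gene through the 4 animals of 1 group alone. With at least 10 counts required in every library, 69 genes remained under 1 CPM, 1 called higher and 5 lower. From 1 to 10 CPM there were then 491 higher and 943 lower. From 100 CPM higher calls were the majority in all 20. Between 10 and 100 CPM the majority was higher in 18 of 20, and lower when libraries were scaled by size alone and in limma voom when each group had its own weight. Precision also differed by class. The median standard error of a log2 fold change was 0.43 under 1 CPM and 0.10 at 1000 CPM or more. Small changes were therefore easier to call in abundant genes, and 26.3% of genes were called in the lowest class against 74.2% in the highest. Without BLM3 these shares were 16.4% and 70.7%, with 170 lower calls under 1 CPM in place of 305. The median size of a called rise was 1.45 under 1 CPM and 0.38 at 1000 CPM or more. For called falls the median was -1.62 and -0.68. Among calls of at least 1 on the log2 scale the order of classes was similar. There were 55 rises and 294 falls under 1 CPM, 201 and 827 from 1 to 10 CPM, and 141 and 303 from 10 to 100 CPM. From 100 to 1000 CPM there were 33 of each, and at 1000 CPM or more 7 rises and 4 falls. Without BLM3 the rises and falls numbered 55 and 162 under 1 CPM, 150 and 583 from 1 to 10 CPM, and 98 and 168 from 10 to 100 CPM. In the upper classes they numbered 26 and 16, and 4 and 3. Over all genes tested, called or not, the median log2 fold change was -0.40 under 1 CPM and 0.30 at 1000 CPM or more.

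**Figure D2:**
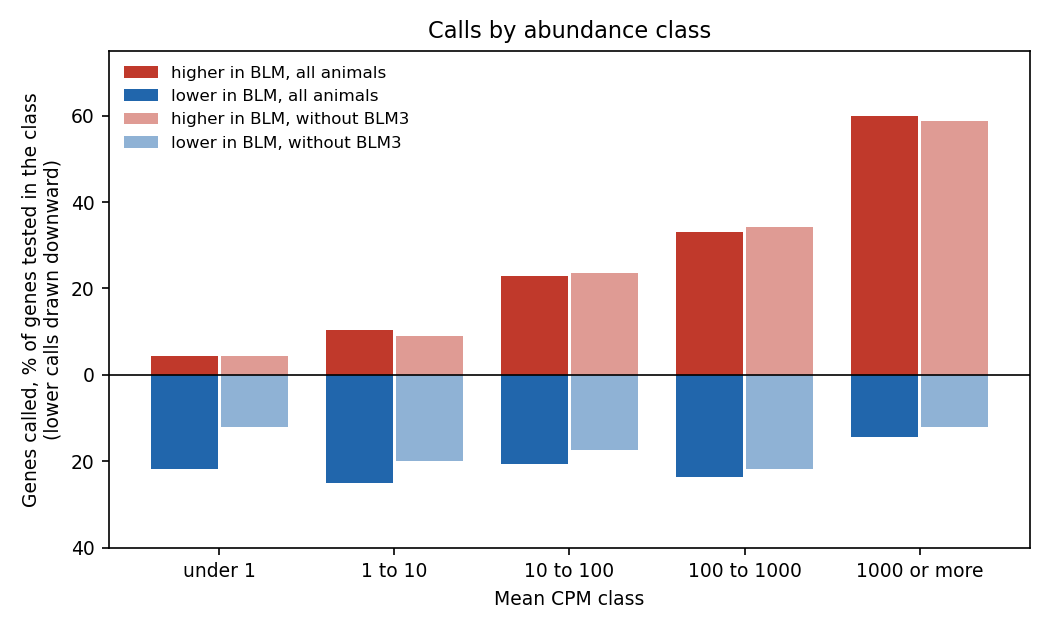
Percentage of tested genes called higher (red, upward) and lower (blue, downward) in BLM, by class of mean CPM; dark bars use all animals and pale bars leave out BLM3. Lower calls outnumber higher calls under 10 CPM, and higher calls reach 59.8% of genes at 1000 CPM or more.

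**Figure D3:**
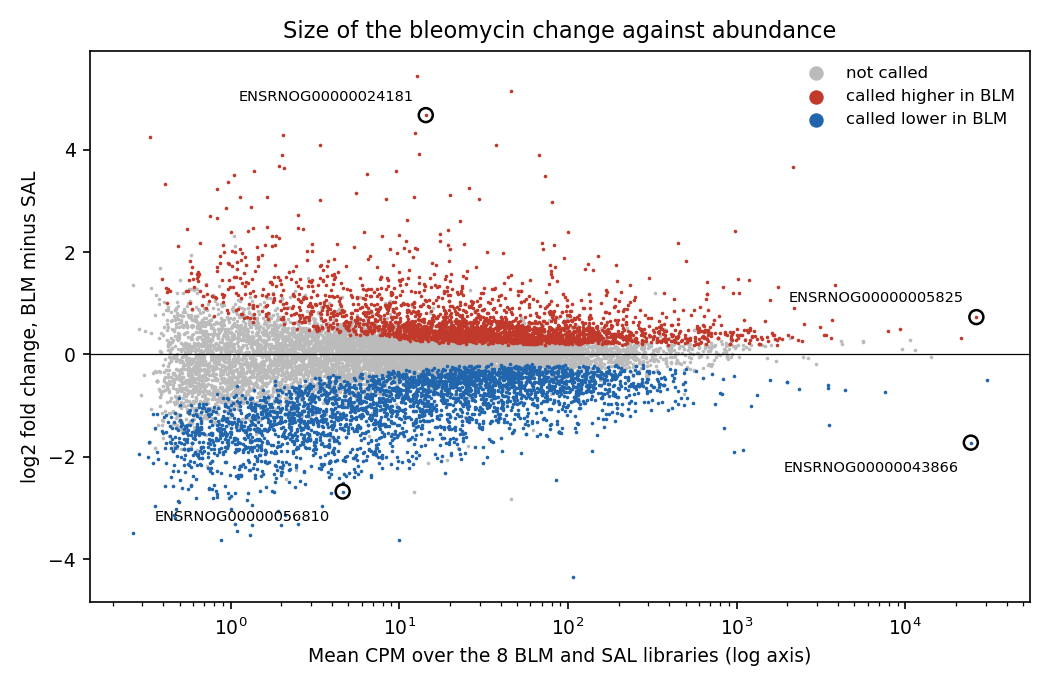
Log2 fold change (BLM minus SAL) against mean CPM over the 8 libraries on a log axis, 1 point per gene tested, with genes called higher in red, called lower in blue and the rest in grey. The 4 circled points are the genes given by identifier, which include 2 of the 3 most abundant genes and 2 of much lower abundance.

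The genes that changed held a large share of the reads. Genes called higher took 29.3% to 31.4% of the counts in the SAL libraries and 39.9% to 46.9% in the BLM libraries. Genes called lower took 27.3% to 30.2% in SAL and 11.9% to 20.04% in BLM. These genes were chosen by their difference between the groups, so the shares describe how much RNA they held and test nothing. BLM3 had the highest share of the first set and the lowest of the second, and BLM2 the reverse among BLM animals. When the genes were taken from the fit without BLM3, BLM3 was again at the ends of the BLM range, with 45.1% and 8.78%. The other BLM animals then had 39.8% to 41.7% and 10.6% to 14.6%.

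A small part of the called genes accounted for 50% of this shift in each direction. Summed over the genes called higher, the mean was 299315 CPM for SAL and 427284 CPM for BLM, and 64 of the 2743 genes held 50% of the gain. Over the genes called lower it went from 281566 to 165765 CPM, and 20 of the 3355 genes held 50% of the loss. The 10 largest contributors held 28.4% of the gain and 44.8% of the loss. From the SAL mean, the summed CPM of these lower genes dropped by 161657 in BLM3. In the mean of the other BLM animals it dropped by 100517. At the other end, complete gain or loss of a transcript was rare and weak. Over all identifiers, 16 had a count in every BLM animal and none in SAL, with at most 31 counts summed over the BLM animals. In the other direction 42 had a count in every SAL animal and none in BLM, with at most 27 counts. No identifier reached 5 counts in every animal of a group while absent from the other group.

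Most called genes separated the animals completely. The 4 BLM values lay all above or all below the 4 SAL values for 5588 genes (37.4% of genes tested), 2414 above (16.1%) and 3174 below (21.2%). Among called genes, all 4 BLM animals lay above every SAL animal for 2135 of the genes called higher (77.8%), and 3 did so for 533. For 2885 of the genes called lower (86.0%) all 4 lay below, and for 413, 3 did. When a single BLM animal lay inside the saline range it was most often BLM2, for 312 of those 533 genes and 263 of those 413. BLM3 was that animal for 53 and 29 genes. Separation was complete for 78.7% of calls with a change under 0.5 and 94.0% of calls from 2 to 3. It was 78.7% again for the 47 calls of 3 or more. Without BLM3 the values did not overlap for 6330 genes (42.3%), 3230 above (21.6%) and 3100 below (20.7%), a condition that is easier to meet with 3 animals.

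The BLM animals stood in a common order. Over the genes called higher, the median log2 difference from the SAL mean was 0.31 in BLM2, 0.40 in BLM1, 0.49 in BLM4 and 0.64 in BLM3. Over the genes called lower it was -0.49 in BLM2, -0.67 in BLM1, -1.002 in BLM4 and -1.39 in BLM3. The SAL animals lay between -0.09 and 0.05 in both sets. BLM3 was therefore furthest from saline and BLM2 nearest, and the animals were spread more widely in the genes that fell. BLM3 was the furthest animal for 64.1% of genes called higher and 72.0% of genes called lower, and BLM2 the nearest for 53.8% and 69.4%. Of the 24 possible orders of the BLM animals, the order BLM2, BLM1, BLM4, BLM3 was the commonest. It held 28.3% of genes called higher and 47.4% of genes called lower. Among genes not called it held 15.1% of those with a fold change above 0 and 13.6% of those below. Called genes share their saline animals and their library scaling, so these shares are descriptions.

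In genes chosen without BLM3, that animal still lay beyond the others. Over the 2716 genes called higher in the fit without it, its median log2 difference from the SAL mean was 0.57, against 0.31 to 0.47 in the BLM animals that entered the fit. Over the 2715 genes called lower it was -1.50, against -0.55 to -1.09. The same SAL animals served both sides. The spread among BLM animals was also larger in general. The median standard deviation of log2 CPM over genes was 0.16 in SAL (n = 4), 0.26 in BLM (n = 4) and 0.20 in BLM without BLM3 (n = 3). It was larger in BLM than in SAL for 73.1% of genes tested, and for 59.0% without BLM3. For genes called lower these shares were 86.9% and 75.5%, and for genes called higher 74.7% and 56.8%.

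**Figure D4:**
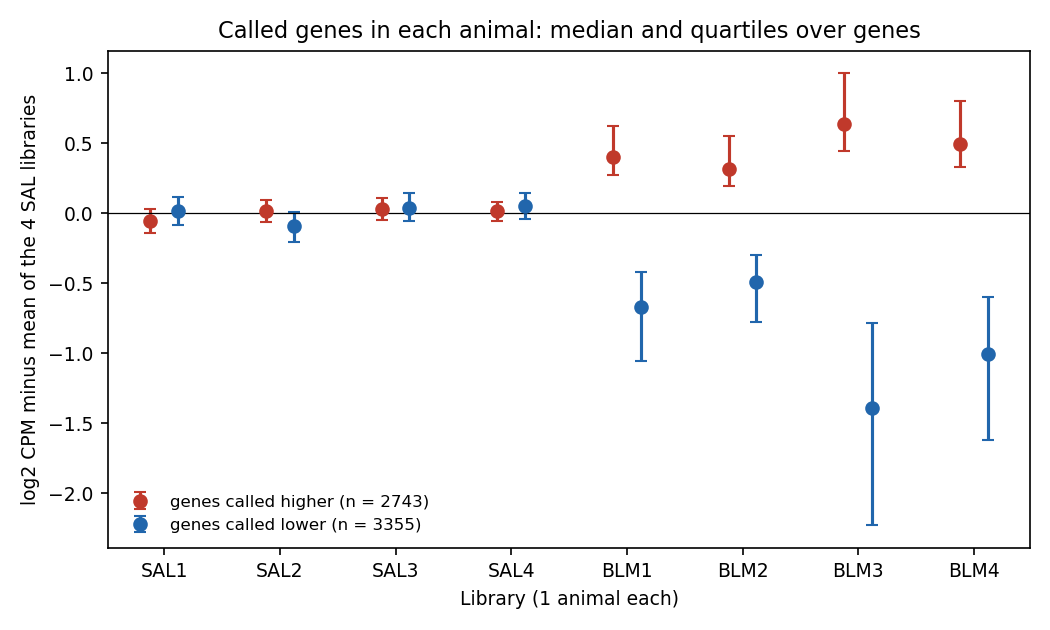
Median (point) and quartiles (bars) over genes of log2 CPM minus the mean of the 4 SAL libraries, for each library, over the 2743 genes called higher (red) and the 3355 called lower (blue). BLM2 lies nearest to saline and BLM3 furthest in both sets, at -0.49 and -1.39 for the lower genes.

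Genes to be given by identifier had to be called with and without BLM3, reach a mean of 5 CPM in BLM or SAL, and show no overlap between animals. No animal could hold over 60% of its group's summed CPM. Of the 3747 genes that met these conditions, 1906 rose and 1841 fell. The 10 largest rises by log2 fold change lay between 3.15 and 4.68 (edgeR adjusted p up to 0.00487), and between 2.61 and 4.03 without BLM3. BLM3 had the highest BLM value for 7 of them. The 10 largest falls lay between -2.68 and -2.34 (edgeR adjusted p up to 0.00869). Without BLM3 they lay between -2.40 and -1.91. BLM2 had the highest BLM value for all 10 and BLM3 the lowest for 9, the order seen over the genes called lower. The largest changes in CPM did not keep this order. Among the 5 largest rises by CPM, BLM3 had the highest BLM value for 1 and the lowest for 3. Among the 5 largest falls by CPM, BLM2 had the highest BLM value for 2 and the lowest for 3.

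Among the 3747 genes the largest rise was that of ENSRNOG00000024181, a gene of low abundance in SAL. It stood at 1.46, 1.76, 0.571 and 0.523 CPM in SAL1 to SAL4. In BLM1 to BLM4 it stood at 11.8, 7.93, 62.2 and 28.8 CPM. All BLM animals lay above all SAL animals, BLM3 highest and BLM2 lowest. BLM averaged 27.7 ± 24.7 CPM against 1.08 ± 0.627 CPM for SAL (SD, n = 4 each). The log2 fold change amounted to 4.68 (SE 0.74, edgeR adjusted p = 0.00112) and, without BLM3, 3.95 (SE 0.60, edgeR adjusted p = 0.000905). Without that animal the BLM mean was 16.2 ± 11.1 CPM (SD, n = 3).

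The largest rise in CPM was that of ENSRNOG00000005825, the second most abundant gene tested. It stood at 19444, 18045, 20640 and 21334 CPM in SAL1 to SAL4, and at 33100, 38097, 29170 and 31448 CPM in BLM1 to BLM4. The groups did not overlap. Here the order differed from that of most called genes, since BLM2 was highest and BLM3 lowest. BLM averaged 32954 ± 3788 CPM against 19866 ± 1444 CPM for SAL (SD, n = 4 each), and the gene went from 2.02% to 3.28% of all counts on average. The log2 fold change amounted to 0.73 (SE 0.12, edgeR adjusted p = 0.00141), and 0.83 without BLM3 (SE 0.12, edgeR adjusted p = 0.000787). It held 10.2% of the summed gain of all genes called higher.

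Among the same genes the largest fall by log2 fold change was that of ENSRNOG00000056810. It stood at 8.19, 5.93, 10.1 and 7.79 CPM in SAL1 to SAL4 and at 1.700, 1.97, 0.602 and 0.742 CPM in BLM1 to BLM4. Every BLM animal lay below every SAL animal, with BLM3 and BLM4 below BLM1 and BLM2. These values rest on few reads, 111 to 176 per SAL library and 13 to 37 per BLM library. BLM averaged 1.25 ± 0.683 CPM against 7.99 ± 1.69 CPM for SAL (SD, n = 4 each). The log2 fold change amounted to -2.68 (SE 0.33, edgeR adjusted p = 0.000312), and -2.40 without BLM3 (SE 0.30, edgeR adjusted p = 0.000269).

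The largest fall in CPM was that of ENSRNOG00000043866, the third most abundant gene over the 8 libraries. It stood at 38626, 32230, 40767 and 38715 CPM in SAL1 to SAL4, a mean of 37585 ± 3704 (SD, n = 4). In BLM1 to BLM4 it stood at 14470, 21125, 2920 and 7033 CPM, a mean of 11387 ± 8062 (SD, n = 4). All BLM animals lay below all SAL animals, but they differed widely, with BLM2 at over 7 times the level of BLM3. The log2 fold change amounted to -1.72 (SE 0.43, edgeR adjusted p = 0.00846), and -1.36 without BLM3 (SE 0.27, edgeR adjusted p = 0.00325). The gene went from 3.83% to 1.13% of all counts on average and held 22.6% of the summed loss of all genes called lower. Scaling by library size alone gave 2295 higher and 3604 lower calls over all genes, against 2743 and 3355 with normalised totals. It called all 4 genes given by identifier.

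**Figure D5:**
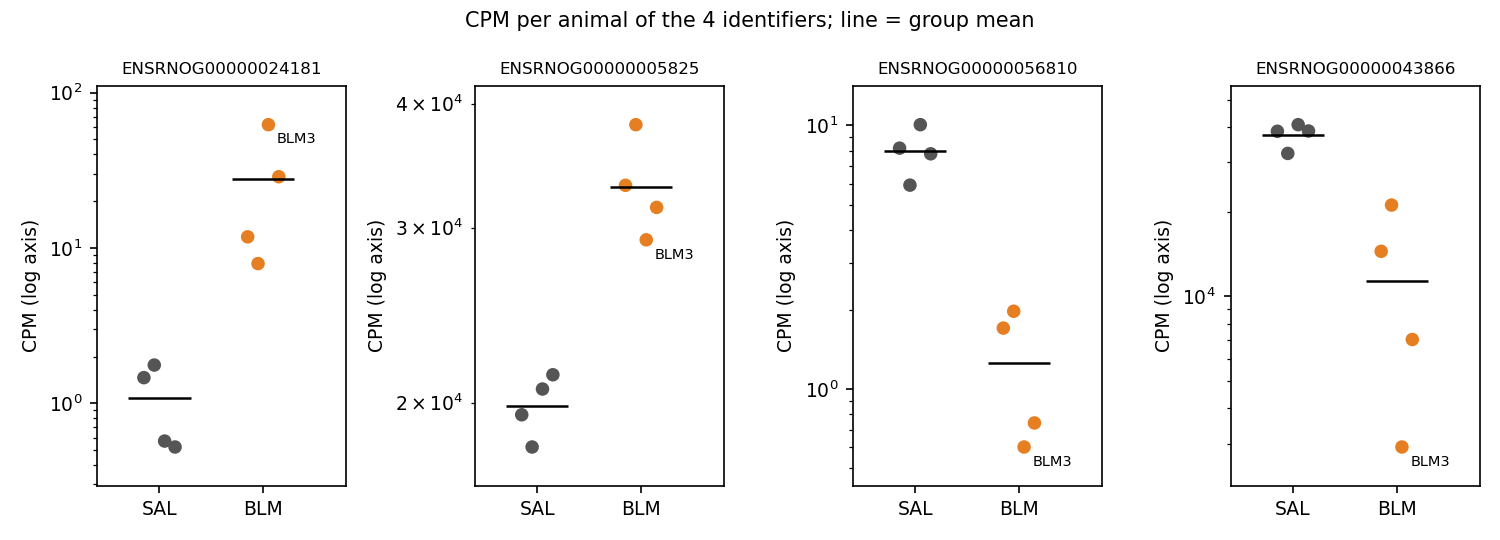
CPM on a log axis of the 4 genes given by identifier, 1 point per animal (replicates 1 to 4 from left to right in each group), SAL in grey and BLM in orange, with lines at the group means. The groups do not overlap in any panel; BLM3 is the highest BLM animal for ENSRNOG00000024181 and the lowest for the other genes.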

How the data were processed

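The authors deposited raw counts of reads per Ensembl gene identifier for 12 QuantSeq FWD (3′-end) libraries. FastQC, STAR, HTSeq and the build rn6 are named in the submitters' processing notes, without versions. The annotation and the use of strand are not given in the sources used here, so reads of overlapping or near-identical genes may be mixed. The 7 empty columns were not used.

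Counts were analysed in R 4.3.3 with edgeR 4.0.16 (filterByExpr, minimum count 10, minimum total 15, 14956 genes kept; TMM factors; quasi-likelihood test, 1 coefficient per group, all 12 libraries sharing the estimate of spread; Benjamini-Hochberg adjustment over all genes). Standard errors were derived from the quasi-likelihood statistic. log2 CPM used a prior count of 2. Fits without an animal kept the same genes. DESeq2 1.42.0 and limma 3.58.1 gave alternatives. Procedures were tested on simulated data. Animals were separate, per the labels. Identifiers were named by the largest log2 fold change and the largest difference in mean CPM, in each direction. The comparison, lists and rules were chosen with earlier results of these data known. With no gene names, the lists were not analysed here.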

Additional observations from a re-analysis of the deposited data

Results flagged for a closer look

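In each group of 4, the library totals, detected genes, share of the 10 most abundant genes, normalisation factor, shares of counts in called genes and CPM of the 4 identifiers were searched for 1 animal far from the others. Of 20 such sets 1 had one, where chance gives about 1. The TMM normalisation factor of SAL3 was 0.993, against 1.03 in each of the other SAL libraries, and it lay within the range of the BLM libraries (0.993 to 0.998). Without SAL3, 5158 genes were called, 2651 higher and 2507 lower.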

How the results depend on the processing

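The number of genes called stayed within 1.5 times 6098 in all 20 alternatives (4477 to 6746), and was 4855 to 6746 over the 8 fits that each left out 1 animal. At least 92.7% of each alternative's calls were among the 6098, except without a filter (90.6%) and without BLM replicate 2 (86.3%). Calls with a log2 fold change of at least 1 ranged from 1265 (without BLM3) to 2396 over the fits that left out 1 animal. They numbered 1232 in the BLM and SAL libraries alone without BLM3, 1160 with at least 10 counts required in every library, and 1160 without both BLM3 and SAL3. With 10 counts required in every library, 325 of them rose and 835 fell, against 437 and 1461 without that requirement. Genes without overlap ranged from 6102 to 7043 when 1 animal was left out. Higher calls were the majority in 6 of 20 alternatives: without BLM3, without SAL replicate 1, 2 or 3, without a filter (3050 against 2980), and with counts thinned to the smallest library (3130 against 3079). All 4 identifiers were called in all 20 alternatives with the same direction. The highest adjusted p-values were 0.0102 for ENSRNOG00000024181, 0.00634 for ENSRNOG00000005825, 0.00335 for ENSRNOG00000056810 and 0.0318 for ENSRNOG00000043866. The thinned counts and the fit without both animals were chosen after seeing the data.

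Replicate numbers are shared by the groups, but the labels do not say that they pair animals. Only 1 of 12 same-numbered pairs had deviations from the group means that correlated above 0.1 across genes (-0.17 to 0.20), and 3 of 12 correlated best with their own number. With the replicate number as a block, 5664 genes were called. At low depth, as for genes under 1 CPM, the standard errors limit what could be called.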
